A study of Mus musculus with 23 samples.

Results

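The genes described here are 8 growth factor receptors and 1 ligand in the muscle cell line C2C12: Ngfr, the FGF receptors Fgfr1, Fgfr2 and Fgfr4, the PDGF receptors Pdgfra and Pdgfrb, the receptor gene Met with its ligand gene Hgf, and Egfr. They are 9 of 32793 genes in the table and were taken by symbol. Ngfr was chosen by its measured values: among decreases from growth medium to day 6 in the knockout-labelled cells it had the lowest log2 fold change. In that contrast Ngfr stood at -6.40, just inside the rule, and the next genes were Prl2c2 at -6.32 and Gsta1 at -5.99. These values chose Ngfr and are given as a description only. For Ngfr no test is therefore given wherever the growth-medium or day 6 libraries labelled KO enter, and for the other genes none is given for day 6 against growth medium in those libraries.

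C2C12 is a mouse myoblast line whose cells divide in serum-rich medium and form multinucleate myotubes in low serum. The cells were C2C12 labelled with the control genotype (WT) or with the genotype Runx1KO. Each genotype was sampled in growth medium with 20% FBS (day 0) and in differentiation medium with 2% horse serum on days 1, 3 and 6, per the sample titles. Day 5 stands in the series text where the titles have day 6, and the titles were followed. There were 3 libraries for each of the 8 groups except WT in growth medium, for which 2 were analysed. The labels do not say how the Runx1KO cells were made, or whether they are 1 clone or a pool. Nothing in the labels says that replicates came from separate cultures, so the p-values measure only the spread between these libraries, which may be technical.

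Most of these genes encode receptor tyrosine kinases, which pair on binding their ligand, phosphorylate each other and pass the signal through adaptors to the ERK and AKT kinases. Ngfr, the low-affinity neurotrophin receptor p75NTR, has no kinase domain and binds neurotrophins, alone or together with other receptors such as sortilin. In myoblasts FGF and HGF signalling is known to favour proliferation over differentiation, and PDGF receptors are best known from the connective tissue cells of muscle.

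Promoter sequence is shown for Ngfr and for 2 genes that behaved differently from it, Pdgfra and Hgf, because the cells compared differ by label in a transcription factor, Runx1. Each line below is 200 bases, from 250 to 51 bases before a RefSeq transcription start in GRCm38.p6, written 5′ to 3′ on the strand of the gene. Capitals mark each CG, the letters of a CpG site. The Ngfr window is chr11:95587749-95587948 on the minus strand, the Pdgfra window is chr5:75152001-75152200 on the plus strand, and the Hgf window is chr5:16553245-16553444 on the plus strand, at the first of 2 RefSeq starts of Hgf.
Ngfr: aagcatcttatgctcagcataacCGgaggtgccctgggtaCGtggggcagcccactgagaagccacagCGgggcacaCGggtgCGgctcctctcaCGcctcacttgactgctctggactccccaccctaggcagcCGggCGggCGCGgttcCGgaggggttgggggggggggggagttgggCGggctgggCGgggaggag
Pdgfra: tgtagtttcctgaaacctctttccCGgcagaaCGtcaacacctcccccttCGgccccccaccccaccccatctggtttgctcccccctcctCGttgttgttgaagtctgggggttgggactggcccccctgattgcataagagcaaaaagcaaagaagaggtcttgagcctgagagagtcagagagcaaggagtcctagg
Hgf: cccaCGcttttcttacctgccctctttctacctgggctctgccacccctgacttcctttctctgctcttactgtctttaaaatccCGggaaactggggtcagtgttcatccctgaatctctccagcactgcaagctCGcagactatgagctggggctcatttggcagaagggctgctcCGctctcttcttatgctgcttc
The Ngfr window was 70.0% G and C with 13 CpG, against 4 CpG each in the Pdgfra and Hgf windows and a median of 4 over all windows. Among the windows not printed, Met held 18 CpG, Fgfr4 12, Egfr 9, the second Hgf start 2 and Fgfr2 1. TGTGGT and TGCGGT, the core letters of the RUNX motif, were searched on both strands and stood in none of these 3 windows, and also in none of those of the second Hgf start (chr5:16553651-16553850), Fgfr2, Fgfr4, Met and Egfr, which are not printed. Of 32851 promoter windows of the same length, 11.6% held TGTGGT and 4.0% held TGCGGT, so most windows hold neither. The E-box letters CAGCTG, searched in the same way, were in none of these windows and in 10.3% of all. The absence of letters from a window says nothing of binding elsewhere. The gene itself lies at chr11:95568818-95587735 on the minus strand (GENCODE M21, GRCm38), and this stretch is upstream of its annotated first exon.

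Several facts of the whole series bear on these genes. Each library held between 22197606 and 23684077 estimated counts, and a floor of 3 counts, covering counting error only, was 0.126 to 0.140 CPM, the count relative to the TMM-scaled library size. Runx1, the gene named in the genotype label, was higher, not lower, where the label said KO. Its log2 difference from WT was 0.51, 0.35, 0.54 and 1.02 on days 0, 1, 3 and 6, with edgeR adjusted p of 0.000362, 0.00151, 1.09e-05 and 6.11e-10, and on each day every library labelled KO was above every WT library. The day 1 value was 0.45 without replicate 2 of labelled KO. Since the gene's level goes against the label, the genotype is written below as "labelled KO". These values do not settle whether the labels are right, and each direction below is that of the libraries as labelled. Replicate 2 of the day 1 group labelled KO stood apart from its replicates (up to 61.35 chi-square per degree of freedom between replicates, against 3.10 to 27.4 within the other groups). Most day 1 calls and log2 differences that use it are given with and without it. Day 1 counts include it unless said otherwise. Markers of myoblasts were present throughout, summing to 1918 to 1979 CPM in WT and 2662 to 2770 CPM in labelled KO in growth medium. On day 6 they summed to 2617 to 3113 and 4215 to 4752 CPM. Myotube markers summed to 33.4 to 65.0 CPM in WT and 109 to 156 CPM in labelled KO on day 1, and to 1860 to 2043 and 3153 to 5803 CPM on day 3. On day 6 these summed to 1534 to 1780 CPM in WT and 8575 to 10680 CPM in labelled KO. The 6 markers of fibroblasts and fibro-adipogenic cells summed to 112 to 125 CPM in WT and 31.1 to 56.6 CPM in labelled KO in growth medium, but to 302 to 361 CPM and 562 to 651 CPM on day 6. Their sums were 216 to 243 CPM in WT and 94.9 to 112 CPM in labelled KO on day 1 and overlapped on day 3. These markers did not move together. On day 6 Ly6a had group means of 91.5 CPM in WT and 539.8 CPM in labelled KO and Dcn of 29.5 and 49.4 CPM, whereas Cd34 had 199.7 and 25.5 CPM and Dpt 2.70 and 0.553 CPM. Pi16 overlapped, with means of 1.39 and 0.872 CPM, and Col15a1 was at 2 counts or fewer. In growth medium Pi16 and Dpt were at 3 counts or fewer in both genotypes, and Cd34 had means of 88.5 CPM in WT and 10.6 CPM in labelled KO. The lower sum of labelled KO in growth medium thus lay mostly in Cd34. Defining markers of adipocytes were at 3 counts or fewer in every library, as were Sox10, S100b and Foxd3 of Schwann cells and neural crest. The part of these shifts in the receptor results was not tested. In bulk RNA, fewer cells that express a gene and less RNA per cell cannot be told apart.

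Between genotypes, no gene of the set was called higher in labelled KO on any of the 4 days, and between 4 and 7 were called lower. Calls were made at an adjusted p below 0.05, from the quasi-likelihood test of edgeR with the Benjamini-Hochberg method over 14187 genes, and every adjusted p is of this kind unless another tool is named. All 9 genes passed the filter on low counts. In growth medium 5 of 8 genes were lower in labelled KO (17.5% of all genes tested were called, 7.36% as higher and 10.1% as lower), with a median log2 difference of -1.16 against -0.00 over all genes. On day 1 it was 5 of 9 (42.2% of all genes, 22.9% as higher and 19.2% as lower), and on day 3 it was 7 of 9 (43.2%, 24.0% as higher and 19.2% as lower). On day 6 it was 4 of 8 (42.9%, 22.0% as higher and 20.8% as lower), with a median of -0.31 against 0.00 over all genes. The count of higher calls was also 0 at an unadjusted p under 0.05 in edgeR, DESeq2 and limma on log2(TPM + 1). Groups did not overlap for 6 of 8 genes on day 0 (51.6% of all genes), 5 of 9 on day 1 (47.1%), 9 of 9 on day 3 (60.4%) and 5 of 8 on day 6 (51.7%). The calls on days 1, 3 and 6 thus stand against a background in which 42.2% or more of genes were called, and those in growth medium against a lower one. Without replicate 2 of labelled KO, the day 1 calls were also 5, with log2 differences of -2.00 for Fgfr4, -1.14 for Pdgfrb, -1.10 for Hgf, -0.79 for Pdgfra and -0.39 for Egfr, and those not called were -0.67 for Fgfr2 and -0.22 for Met.

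**Figure D1:**
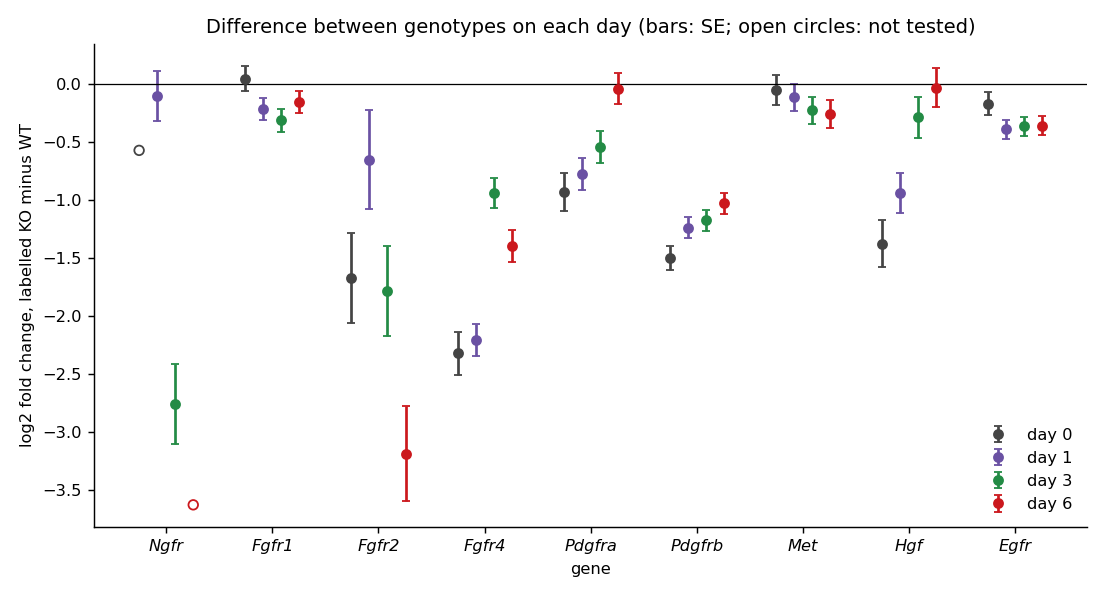
Log2 fold change of labelled KO against WT (vertical axis) for each of the 9 genes (horizontal axis) on days 0, 1, 3 and 6; filled points are edgeR estimates with their SE and open circles are Ngfr values given without a test. Pdgfrb and Fgfr4 lie below 0 on every day, Pdgfra and Hgf approach 0 by day 6, and Ngfr and Fgfr2 have their lowest values on day 6.

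Ngfr was highest in growth medium and lower on every later day in both genotypes, and its level in labelled KO went on down to a few counts per library. In growth medium it stood at 28.2 and 24.3 CPM in WT and at 21.0, 17.4 and 14.4 CPM in labelled KO. On day 1 it stood at 6.16, 5.26 and 6.62 CPM in WT and at 5.19, 4.61 and 7.03 CPM in labelled KO. All growth-medium libraries thus lay above all later ones, and the genotypes were apart in growth medium and overlapped on day 1. On day 3 Ngfr stood at 2.31, 2.95 and 3.69 CPM in WT and at 0.815, 0.179 and 0.314 CPM in labelled KO. Day 6 values were 3.05, 2.04 and 2.64 CPM in WT and 0.177, 0.129 and 0.305 CPM in labelled KO. On days 3 and 6 the groups did not overlap, and every WT library lay between 2.04 and 3.69 CPM.

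In WT cells Ngfr fell on differentiation, with log2 changes of -2.12 by day 1 (SE 0.22), -3.13 by day 3 (SE 0.23) and -3.34 by day 6 (SE 0.24). The edgeR adjusted p values were 2.1e-08, 1.02e-10 and 2.54e-11. These are WT libraries that the choice of Ngfr did not use, and there Ngfr ranked 39 of 3565, 12 of 3734 and 11 of 4016 decreases that were called, did not overlap and had a group mean of at least 5 CPM. The same types of symbol were left out of these ranks as in the choice of Ngfr. On day 1 the genotype difference was -0.10 (SE 0.22, edgeR adjusted p 0.734), and without replicate 2 of labelled KO it was 0.05 (adjusted p 0.896). On day 3 Ngfr was 6.84-fold lower in labelled KO, a log2 difference of -2.76 (SE 0.34, edgeR adjusted p 6.77e-07). Without replicate 1 of labelled KO on day 3, the library at 0.815 CPM, the difference was -3.57. As a description, the difference was -0.57 in growth medium and -3.63 on day 6, and labelled KO went from 17.6 to 0.204 CPM between these times, which is 86.5-fold lower. These values depend on the scale for a gene this low. On log2(TPM + 1) the day 3 difference was -1.10 (limma adjusted p 5.72e-06), the day 6 difference -1.12 and the change by day 6 in labelled KO -3.02, and in WT the changes by days 3 and 6 were -2.38 and -2.49. On log2(TPM + 0.1) the day 6 difference was -2.92 and the change by day 6 in labelled KO -5.36.

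The day 6 value in labelled KO rests on few counts. The libraries held 4, 3 and 7 counts of Ngfr, 14 in all, and 1 of them was at the floor of 3 counts. The WT libraries of day 6 held 180 counts in all.

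**Figure D2:**
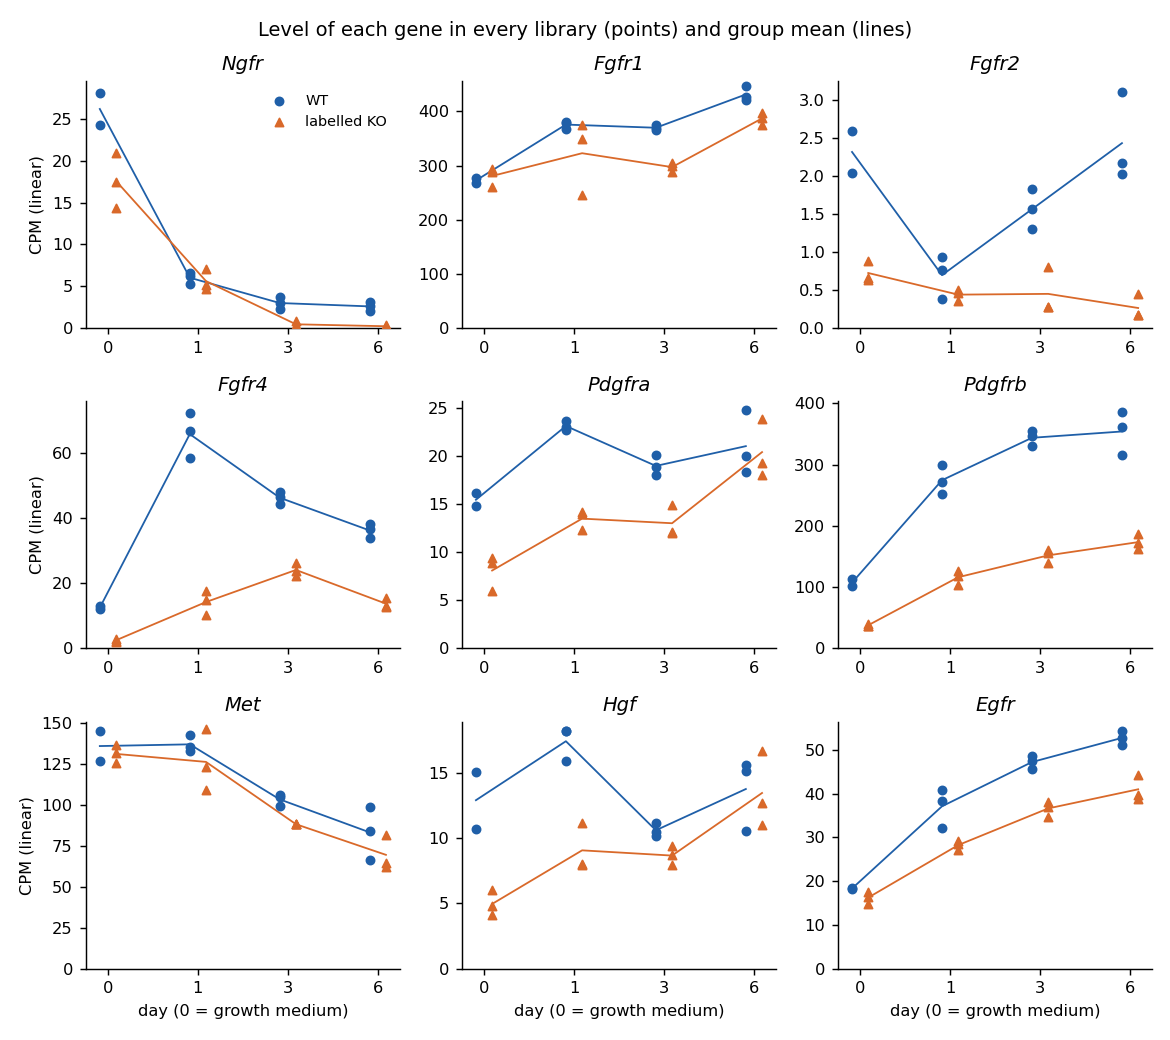
CPM on a linear axis in every library (circles WT, triangles labelled KO) by day for each of the 9 genes, with lines through group means. Ngfr drops from 14.4 to 28.2 CPM in growth medium to at most 7.03 CPM afterwards, whereas Pdgfrb, Fgfr4 and Egfr are higher in every differentiating group than in growth medium of the same genotype.

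Other genes of related function were described as lists, and no list was tested, so each count stands beside the share of all genes called. Of 20 genes listed for the neurotrophin system 17 passed the filter on low counts. On day 3 5 were called higher and 2 lower in labelled KO (24.0% and 19.2% of all genes), with a median log2 difference of 0.10 against 0.04 over all genes. Among those called were Ntrk3, which was lower, and Sort1, which was higher.

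Ntrk3, the gene of the neurotrophin-3 receptor TrkC, was lower in labelled KO on every day. In WT cells it rose from 1.72 and 1.39 CPM in growth medium to 12.3, 9.40 and 10.1 CPM on day 6. In labelled KO it stayed between 0 and 0.473 CPM in all 12 libraries, below every WT library. It was at least 11.2-fold lower in growth medium and at least 39.7-fold lower on day 1, where the libraries labelled KO held at most 2 counts. On days 3 and 6 its log2 difference was -5.47 and -5.24 (edgeR adjusted p 6.68e-12 and 8.23e-13), and the latter was -5.88 without replicate 2 of labelled KO on that day. Ntrk3 thus differed in growth medium already. Ngfr was also apart there, at 28.2 and 24.3 CPM in WT and 14.4 to 21.0 CPM in labelled KO, given without a test. Ntf3, the gene of its ligand and looked up for that reason, had 0 counts in all 23 libraries. Without replicate 2 of labelled KO, the day 1 libraries held 0 and 2 counts of Ntrk3.

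Sort1, the gene of sortilin, a co-receptor that binds proneurotrophins with p75NTR, was higher in labelled KO. It stood at 11.0, 7.58 and 9.73 CPM in WT and at 54.4, 58.4 and 61.5 CPM in labelled KO on day 6. All libraries labelled KO were above all WT libraries on each day. Its log2 difference was 0.41, 1.07, 2.06 and 2.62 on days 0, 1, 3 and 6, with edgeR adjusted p of 0.0428, 1.74e-07, 2.01e-12 and 9.13e-15. Without replicate 2 of labelled KO, the day 1 value was 1.13. The day 0 call was lost when any 1 of the 5 growth-medium libraries was left out, with library size only, with no filter and on both TPM scales.

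**Figure D3:**
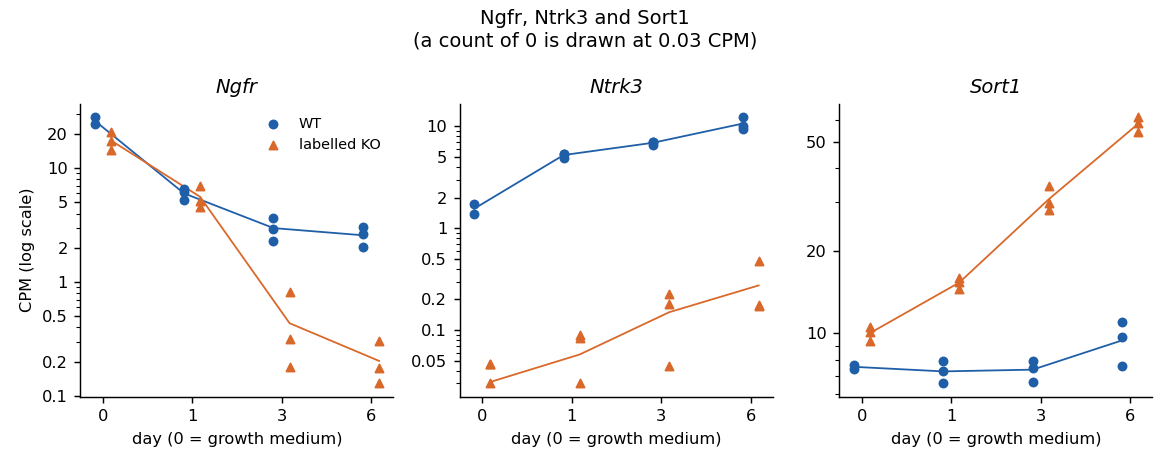
CPM on log axes by library and day for Ngfr, Ntrk3 and Sort1 (circles WT, triangles labelled KO, lines group means, a count of 0 drawn at 0.03 CPM). Ntrk3 is lower and Sort1 higher in labelled KO on every day, and Ngfr is lower in labelled KO on days 0, 3 and 6.

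The 3 FGF receptor genes of the set differed in level and in pattern. Fgfr1, the main FGF receptor of myoblasts, was the highest of the 3 in TPM, the authors' length-scaled unit. It stood at 277 and 268 CPM in WT and 294, 289 and 260 CPM in labelled KO in growth medium, where the groups overlapped. On day 3 it stood at 369, 365 and 376 CPM in WT and at 300.0, 304 and 287 CPM in labelled KO, without overlap. On day 1 the WT libraries stood at 368 to 381 CPM, and on day 6 they stood at 422 to 446 CPM against 375 to 398 CPM in labelled KO. Between genotypes the log2 difference was 0.04, -0.22, -0.32 and -0.16 on days 0, 1, 3 and 6, and only that of day 3 passed the test (SE 0.10, edgeR adjusted p 0.0114). The day 1 value rests on replicate 2 of labelled KO at 245 CPM, since its replicates stood at 349 and 374 CPM and without it the difference was -0.03. On day 1 Fgfr1 was called under RLE scaling, library size only, either other count filter and DESeq2 (-0.24 to -0.27, adjusted p 0.0238 to 0.0417), and on day 6 it was called on both TPM scales. In WT Fgfr1 rose by 0.46, 0.44 and 0.66 on the log2 scale by days 1, 3 and 6 (adjusted p 0.00105, 0.00152 and 1.64e-05).

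Fgfr4, the receptor most closely tied to myogenic cells, rose on differentiation in both genotypes but from a lower level in labelled KO. In growth medium it stood at 12.0 and 13.0 CPM in WT and at 2.99, 2.05 and 2.41 CPM in labelled KO. On day 1 it stood at 66.7, 58.5 and 72.4 CPM in WT and at 14.8, 10.3 and 17.7 CPM in labelled KO, and on day 6 at 34.0, 38.2 and 36.6 CPM and at 15.4, 13.0 and 12.8 CPM. Day 3 values were 44.5 to 48.0 CPM in WT and 22.3 to 26.2 CPM in labelled KO. WT libraries were above those labelled KO on every day. Its log2 difference was -2.33, -2.21, -0.94 and -1.40 on days 0, 1, 3 and 6 (SE 0.13 to 0.19; edgeR adjusted p 2.84e-09, 1.13e-11, 3.14e-06 and 1.28e-08). In CPM the WT mean was highest on day 1, 5.27-fold above growth medium, and that of labelled KO on day 3, 9.70-fold above growth medium. The WT peak depends on the unit: in TPM the WT mean was higher on day 3, at 51.6 TPM (26.75 to 66.05), than on day 1, at 38.6 TPM (37.36 to 40), with overlapping libraries, so both genotypes had their highest mean TPM on day 3. The TPM of Fgfr4 is less certain than its counts, since TPM per CPM varied 3.30-fold between libraries, against 1.28-fold to 1.47-fold for the other genes. On log2(TPM + 1) its rise in WT by day 6 was 0.88 and missed the threshold (limma adjusted p 0.0504), its rise by day 1 was 1.63, and its day 3 genotype difference was -1.64. On log2(TPM + 0.1) the day 0 and day 3 differences were -3.13 and -1.69 and the rise in WT by day 1 was 1.72.

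Fgfr2, a receptor best known from epithelia and bone, was the lowest of the 3 in TPM and was measured from 4 to 74 counts per library. Its growth-medium values were 2.60 and 2.04 CPM in WT and 0.635, 0.654 and 0.881 CPM in labelled KO. By day 6 these were 2.02, 2.17 and 3.10 CPM in WT and 0.441, 0.172 and 0.174 CPM in labelled KO. The groups were apart on days 0, 3 and 6 and overlapped on day 1, when WT lay between 0.382 and 0.933 CPM and labelled KO between 0.358 and 0.496 CPM. On day 3 WT lay between 1.31 and 1.82 CPM and labelled KO between 0.269 and 0.804 CPM. From day 0 to day 6 the log2 difference was -1.67, -0.66, -1.79 and -3.19 (SE 0.39 to 0.43), with edgeR adjusted p of 0.00343, 0.227, 0.000711 and 1.05e-06. The day 6 estimate compares 18 counts in all with 170 in WT (0.155 to 0.413 CPM against 2.09 to 2.84 CPM, exact 95% Poisson intervals, which cover counting error only). The day 0 call was lost without replicate 1 of WT (-1.49, adjusted p 0.0617), and the day 3 difference was -2.51 without replicate 2 of labelled KO on that day. On log2(TPM + 1) the differences of days 0, 3 and 6 were -0.54, -0.51 and -0.88, still called by limma, and on log2(TPM + 0.1) that of day 6 was -2.46. In WT Fgfr2 fell by 1.73 on the log2 scale by day 1 (adjusted p 0.000561), and on day 6 it differed from growth medium by 0.07 (SE 0.35, adjusted p 0.873). The day 1 change in WT was -0.49 on log2(TPM + 1) (limma adjusted p 0.00151).

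Among the ligands and partners of these receptors, a list of 19 genes had 15 that passed the filter. In growth medium 3 were lower and none higher in labelled KO (10.1% and 7.36% of all genes), and on day 6 4 were lower and 7 higher (20.8% and 22.0%), with a median log2 difference of 0.15 against 0.00 over all genes. Fgf7, the gene of keratinocyte growth factor, was at 73.1 and 72.4 CPM in WT and at 10.7, 11.1 and 10.2 CPM in labelled KO in growth medium. It was lower on each day, with log2 differences of -2.77, -1.64, -1.38 and -1.07 (edgeR adjusted p 4.33e-14 to 3e-08), with no overlap on any day. Fgf10, a ligand of the Fgfr2 IIIb form, was singled out after its values were seen and was at least 12.5-fold lower in growth medium, where the libraries labelled KO held at most 3 counts. Fgf21, the gene of a circulating stress hormone made by muscle, was higher on day 6 only among the 4 days (11.5 to 13.4 CPM in WT, 47.6 to 56.4 CPM in labelled KO; 2.07, adjusted p 6.68e-09). Fgfr3, the FGF receptor gene outside the set, was higher in labelled KO by 1.04, 1.20 and 1.94 on days 1, 3 and 6 (adjusted p 0.00582, 0.000263 and 1.51e-07), so on day 6 it and Fgfr2 differed in opposite directions. The day 1 call of Fgfr3 was lost when only the groups compared were fitted (1.05, adjusted p 0.0544). Without replicate 2 of labelled KO, the day 1 values were -1.79 for Fgf7 and 1.28 for Fgfr3.

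Pdgfrb, the receptor for PDGF-BB, was lower in labelled KO throughout while rising in both genotypes. It stood at 113 and 102 CPM in WT and at 40.3, 37.3 and 35.7 CPM in labelled KO in growth medium. On day 6 it stood at 316, 361 and 386 CPM in WT and at 187, 172 and 162 CPM in labelled KO. On days 1 and 3 it lay between 252 and 300.0 CPM and between 330 and 355 CPM in WT, and between 104 and 126 CPM and between 139 and 161 CPM in labelled KO. On each day every WT library was above every library labelled KO. The log2 difference was -1.51, -1.24, -1.18 and -1.03 on days 0, 1, 3 and 6 (SE 0.09 to 0.10; edgeR adjusted p 1.33e-10, 2.68e-10, 4.33e-10 and 2.53e-09). In WT it rose by 1.36, 1.68 and 1.72 on the log2 scale by days 1, 3 and 6 (adjusted p 2.4e-10, 7.37e-12 and 2.61e-12), and in labelled KO by 1.62 and 2.01 by days 1 and 3. The first of these was 1.71 without replicate 2 of labelled KO on day 1.

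Pdgfra, which binds most PDGF dimers and marks fibro-adipogenic progenitors in muscle, was lower in labelled KO on days 0, 1 and 3 and not called on day 6. It stood in growth medium at 16.1 and 14.8 CPM in WT and at 9.39, 8.92 and 5.98 CPM in labelled KO. On day 6 it stood at 20.0, 18.3 and 24.7 CPM in WT and at 23.9, 18.1 and 19.3 CPM in labelled KO, and the groups overlapped there for the only time. On days 1 and 3 it lay between 22.7 and 23.6 CPM and between 18.0 and 20.1 CPM in WT, and between 12.3 and 14.2 CPM and between 12.0 and 14.9 CPM in labelled KO. The log2 difference was -0.93, -0.78 and -0.54 on days 0, 1 and 3 (edgeR adjusted p 0.000167, 8.85e-05 and 0.00281) and -0.04 on day 6 (SE 0.13, adjusted p 0.825). Of the fibroblast-type markers given above, Cd34 was lower in labelled KO both in growth medium and on day 6, and Ly6a and Dcn had higher means on day 6, and their part in the Pdgfra values was not tested. The rise of Pdgfra in WT by day 6 (0.44, adjusted p 0.0153) was not called without replicate 2 of WT in growth medium (0.38) or replicate 3 of WT on day 6 (0.31).

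Of 9 listed other genes of the PDGF system, 8 were called higher and 1 lower in WT by day 6 (32.6% and 31.1% of all genes), with a median log2 change of 1.55 against 0.05 over all genes. In labelled KO 6 of the 9 were called lower than in WT on days 3 and 6 (19.2% and 20.8% of all genes), and on day 6 Pdgfb, the gene of the PDGF-B chain, was higher (0.76, edgeR adjusted p 0.000395). Pdgfc, a ligand gene for the alpha receptor, stood at 67.1, 67.4 and 78.3 CPM in WT and 37.2, 38.4 and 36.2 CPM in labelled KO on day 6 (-0.93, adjusted p 2.46e-09). Sparc, the gene of a matrix protein that binds PDGF, had a log2 difference of -1.03 on day 6 (adjusted p 3.68e-10), with group means of 4425 CPM in WT and 2172 CPM in labelled KO. Pdgfa, the gene of the A chain, was lower in labelled KO on day 3 only among the 4 days (-0.35, adjusted p 0.00509).

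Of Met and Hgf, a receptor and its ligand, only Hgf was called different between genotypes, on days 0 and 1. Met, which carries the signal of hepatocyte growth factor in satellite cells, was not called on any of the 4 days. In growth medium it stood at 145 and 127 CPM in WT and at 137, 132 and 126 CPM in labelled KO. Day 6 values were 84.3, 66.6 and 99.1 CPM in WT and 81.6, 64.9 and 62.3 CPM in labelled KO. On day 3 it lay between 99.2 and 106 CPM in WT and between 88.3 and 88.4 CPM in labelled KO. Every day 6 library lay below every growth-medium library, and the genotypes overlapped on days 0, 1 and 6. From day 0 to day 6 the log2 difference was -0.05, -0.12, -0.23 and -0.26 on days 0, 1, 3 and 6, with SE of 0.12 to 0.13 and edgeR adjusted p of 0.858, 0.442, 0.12 and 0.0809. A call was made on day 3 when only the groups compared were fitted (adjusted p 0.00256) and on day 6 with library size only (-0.33, adjusted p 0.045), without replicate 2 of WT (-0.41) or without replicate 1 of labelled KO (-0.39). With a library left out the day 6 difference ranged from -0.41 to -0.1. In WT Met fell, with log2 changes of -0.39 by day 3 (adjusted p 0.0118) and -0.71 by day 6 (adjusted p 4.87e-05), and the day 3 call was lost without replicate 1 of WT in growth medium (-0.30, adjusted p 0.132), with library size only and on both TPM scales.

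Hgf, the gene of the ligand, was lower in labelled KO in growth medium and on day 1. In growth medium it stood at 15.1 and 10.7 CPM in WT and at 5.99, 4.81 and 4.08 CPM in labelled KO. On day 1 it stood at 18.2, 18.2 and 15.9 CPM in WT and at 8.03, 11.2 and 7.97 CPM in labelled KO, and on day 6 at 15.1, 10.6 and 15.6 CPM and at 16.6, 12.7 and 11.0 CPM. On day 3 it lay between 10.2 and 11.2 CPM in WT and between 7.91 and 9.38 CPM in labelled KO. The groups were apart on days 0, 1 and 3 and overlapped on day 6. The log2 difference was -1.38 and -0.94 on days 0 and 1 (edgeR adjusted p 2.55e-05 and 0.000141), and -0.29 and -0.03 on days 3 and 6 (adjusted p 0.197 and 0.898), and with only the groups compared the day 3 difference was called (adjusted p 0.0376). In labelled KO Hgf rose by 0.87 by day 1 and by 0.80 by day 3 (adjusted p 0.00052 and 0.001), and without replicate 2 on day 1 the first was 0.70 (adjusted p 0.00473). In WT its day 1 change of 0.43 missed the threshold (adjusted p 0.0598), though it was called with both other scalings, both other filters, DESeq2, log2(TPM + 1), the groups compared alone, the replicate block and without replicate 1 of WT in growth medium.

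Of 13 listed genes for HGF activation and MET partners 10 passed the filter, and on day 3 5 were called higher and none lower in labelled KO (24.0% and 19.2% of all genes). The counts were 3 higher and 1 lower on day 0 (7.36% and 10.1%), 2 and 1 on day 1 with replicate 2 included (22.9% and 19.2%), and 2 and 2 on day 6 (22.0% and 20.8%). Spint1, the gene of an inhibitor of the HGF-activating proteases, was lower in growth medium and on day 1, with log2 differences of -1.39 and -1.41 (edgeR adjusted p 2.42e-05 and 2.89e-06). It stood at 10.7 and 12.9 CPM in WT and 4.95, 4.48 and 4.03 CPM in labelled KO in growth medium. Plau, the gene of the protease urokinase, had log2 differences of 0.41 on day 1 and 0.57 on day 3 (adjusted p 0.000667 and 1.2e-05). Without replicate 2 of labelled KO, the day 1 values were -1.25 for Spint1 and 0.38 for Plau.

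Egfr, the receptor for EGF and its relatives, rose on differentiation in both genotypes and was lower in labelled KO on days 1, 3 and 6. In growth medium it stood at 18.1 and 18.6 CPM in WT and at 17.7, 14.8 and 16.4 CPM in labelled KO. On day 6 it stood at 51.1, 52.7 and 54.4 CPM in WT and at 44.4, 38.8 and 39.8 CPM in labelled KO. On days 1 and 3 it lay between 32.3 and 40.8 CPM and between 45.7 and 48.6 CPM in WT, and between 27.1 and 29.1 CPM and between 34.7 and 38.1 CPM in labelled KO. The groups were apart on each day. Between genotypes the log2 difference was -0.17 in growth medium (SE 0.10, edgeR adjusted p 0.279) and -0.39, -0.37 and -0.36 on days 1, 3 and 6 (adjusted p 0.000656, 0.001 and 0.000995). In WT Egfr rose 2.88-fold by day 6 (1.52 on the log2 scale, adjusted p 6.6e-12), and in labelled KO it had risen 2.25-fold by day 3 (1.17, adjusted p 8.37e-11).

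Of 17 listed ligands, related receptors and regulators of EGFR 15 passed the filter, and on day 6 4 were called higher and 5 lower in labelled KO (22.0% and 20.8% of all genes), with a median log2 difference of -0.15 against 0.00 over all genes. Hbegf, the gene of a heparin-binding EGF receptor ligand, stood at 79.9, 74.5 and 79.4 CPM in WT and at 32.4, 32.0 and 27.5 CPM in labelled KO on day 3. Its log2 difference was -1.35 on day 3 and -0.80 on day 6 (edgeR adjusted p 1.4e-10 and 2.37e-07). Erbb3, a neuregulin receptor gene, was higher by 1.10 and 2.30 on the same days (adjusted p 0.000663 and 4.22e-08), reaching 27.2 to 33.5 CPM in labelled KO. Its day 3 difference ranged from 0.68 to 1.32 with a library left out and stayed called. Erbb3 was also on the marker list of Schwann cells and neural crest, whose sum was 28.9 to 35.4 CPM in labelled KO and 5.32 to 9.81 CPM in WT on day 6, while Sox10, S100b and Foxd3 were at 3 counts or fewer.

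With time, 7 of 9 genes changed in WT by day 1, 5 up and 2 down (54.7% of all genes, 27.1% up and 27.6% down). By day 3 there were 4 up and 2 down (58.2%, 29.2% up and 29.0% down), and by day 6 there were 5 up and 2 down (63.6%, 32.6% up and 31.1% down). By day 6 these were increases of Fgfr1, Fgfr4, Pdgfra, Pdgfrb and Egfr and decreases of Ngfr and Met. In labelled KO 5 of 8 genes rose by day 1 (52.3%, 27.2% up and 25.2% down), and without replicate 2 on day 1 it was 6, with Fgfr1 added (0.38, adjusted p 7.74e-06). By day 3 there were 5 up and 1, Met, down (57.6%, 30.4% up and 27.2% down). For day 6 in labelled KO the values are given without a test, in a contrast where 70.0% of all genes were called. The log2 change was 0.46 for Fgfr1, -1.45 for Fgfr2, 2.46 for Fgfr4, 1.33 for Pdgfra, 2.20 for Pdgfrb, -0.91 for Met, 1.44 for Hgf and 1.33 for Egfr, beside -6.40 for Ngfr, and on log2(TPM + 1) that of Fgfr2 was -0.20. Between 52.3% and 63.6% of all genes were called in the contrasts tested, so these counts say little that is particular to the set.

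Whether the change with time differed between genotypes was tested for 8 genes as an interaction, the change in labelled KO minus the change in WT. On day 1 no gene was called (3.95% of all genes were), also without replicate 2 of labelled KO, and at an unadjusted p under 0.05 the count was 0 in edgeR, 1 in DESeq2 and 1 in limma on log2(TPM + 1). On day 3 Fgfr4 (1.38, SE 0.23, edgeR adjusted p 0.000253) and Hgf (1.09, SE 0.27, adjusted p 0.0101) were called, 2 of 8 and both positive, against 10.7% of all genes and 6.65% as positive. Fgfr1 was also called on day 3, with a negative value, in DESeq2 (-0.41, adjusted p 0.0398) and with only the groups compared (-0.36, edgeR adjusted p 0.00441), and Pdgfrb with only the groups compared (0.33, adjusted p 0.0316). On day 6 Hgf (1.34, adjusted p 0.00108), Fgfr4 (0.93, adjusted p 0.00921), Pdgfra (0.89, adjusted p 0.00529) and Pdgfrb (0.48, adjusted p 0.0215) were called, 4 of 8 and all positive, against 13.0% of all genes and 7.54% as positive. On both TPM scales neither day 3 value was called (adjusted p 0.0774 to 0.337), and on day 6 Hgf was called on both and Fgfr4 on log2(TPM + 0.1), at 1.69, but Pdgfra and Pdgfrb on neither. Each of these genes gained more from growth medium in labelled KO than in WT, and each was lower in labelled KO in growth medium. These contrasts share the growth-medium libraries, and the Hgf call on day 3 was lost without replicate 1 of WT in growth medium (0.83, adjusted p 0.103). The Pdgfrb call on day 6 was lost without any of 4 libraries (0.40 to 0.44): replicate 1 of WT and replicate 3 of labelled KO in growth medium, and replicate 1 of either genotype on day 6. Fgfr2 missed the threshold on day 6 (-1.52, adjusted p 0.0965), and without replicate 1 of labelled KO on day 6 it was called (-2.10, adjusted p 0.0358). On log2(TPM + 1) this Fgfr2 value was -0.34 (limma adjusted p 0.166). For Ngfr the same quantity, given as a description, was 0.47, -2.19 and -3.06 on days 1, 3 and 6. It was 0.62 on day 1 without replicate 2 of labelled KO on that day, and -2.99 on day 3 without replicate 1 of labelled KO on that day. On log2(TPM + 1) the Ngfr values of days 3 and 6 were -0.51 and -0.53, and on log2(TPM + 0.1) that of day 6 was -2.28.

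Genes downstream of the receptors were followed in 2 lists. Of 22 genes of feedback inhibitors and ERK-induced genes, on day 3 4 were called higher and 8 lower in labelled KO (24.0% and 19.2% of all genes), and on day 6 6 higher and 8 lower (22.0% and 20.8%), with medians of -0.09 and -0.06 against 0.04 and 0.00 over all genes. Spry1, a Sprouty gene whose product restrains receptor-to-ERK signalling, was at 0.352 and 0.185 CPM in WT and 2.13, 2.19 and 2.04 CPM in labelled KO in growth medium. It was higher in labelled KO on each day, by 2.95, 2.37, 1.21 and 0.65 on the log2 scale (adjusted p 3.39e-09 to 0.00342), and its relative Spry4 by 0.61, 1.49, 1.88 and 1.64. The Spry4 call on day 0 (edgeR adjusted p 0.00301) was lost without replicate 2 of WT. Il17rd, the gene of the FGF antagonist Sef, was lower on each day, with log2 differences of -1.27, -1.70, -2.16 and -1.51 (adjusted p 0.000749 to 2e-08). The inhibitor genes thus did not share a direction. Without replicate 2 of labelled KO, the day 1 values were 2.62 for Spry1, 1.60 for Spry4 and -1.67 for Il17rd. Dusp6, the gene of an ERK phosphatase and a common readout of FGF signalling, was lower in growth medium (-0.51, adjusted p 0.0019) and on day 6 (-0.34, adjusted p 0.00835), and the first call was lost without replicate 1 of WT (-0.33).

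**Figure D4:**
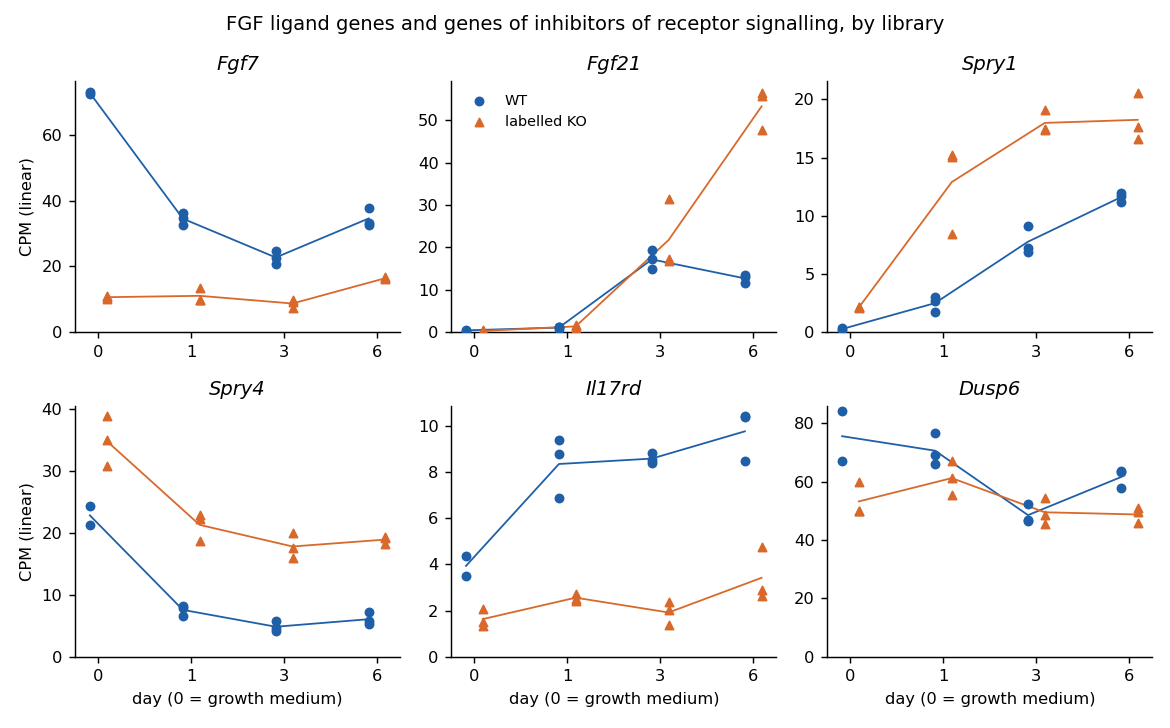
CPM on linear axes by library and day for Fgf7, Fgf21, Spry1, Spry4, Il17rd and Dusp6 (circles WT, triangles labelled KO, lines group means). Fgf7 and Il17rd are lower and Spry1 and Spry4 higher in labelled KO on every day, and Fgf21 is separate on day 6.

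Of 25 listed genes that carry receptor signals to ERK and AKT, 10 were called higher and 4 lower in labelled KO on day 6 (22.0% and 20.8% of all genes), with a median of 0.03 against 0.00 over all genes. Akt2, an AKT kinase gene linked to muscle differentiation, was higher by 1.06 on day 6 (157 to 168 CPM in WT, 316 to 346 CPM in labelled KO; edgeR adjusted p 1.12e-09). Among 26 other receptor tyrosine kinase genes, of which 21 passed the filter, 7 were called higher and 5 lower on day 6, against the same shares of all genes. Musk, the receptor kinase of the neuromuscular junction, was higher by 0.92 (adjusted p 4e-06), and Epha4, an ephrin receptor gene, had a log2 difference of -1.15 (adjusted p 0.000113).

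Levels of the 9 genes can be compared with each other only per transcript length, for which the authors' TPM was used. Fgfr1 was the highest in every group, at 94.7 TPM ± 9.001 (SD, n = 2) in WT growth medium and 140 TPM ± 4.96 (SD, n = 3) in labelled KO on day 6. In WT growth medium Pdgfrb and Met followed with overlapping values, then Fgfr4 and Ngfr, also overlapping. Hgf came next, below Ngfr without overlap but overlapping Fgfr4, and Egfr, Pdgfra and Fgfr2 followed in separate steps. Ngfr thus stood near the middle of the order in proliferating cells, at 12.4 TPM ± 1.76 (SD, n = 2) in WT and 7.99 TPM ± 1.58 (SD, n = 3) in labelled KO. By day 6 it was the eighth in WT at 1.39 TPM ± 0.33 (SD, n = 3) and the last in labelled KO at 0.097 TPM ± 0.040 (SD, n = 3), in both cases overlapping Fgfr2. Pdgfrb came second in WT growth medium and in both genotypes on day 6, and in labelled KO growth medium Met lay above it without overlap.

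**Figure D5:**
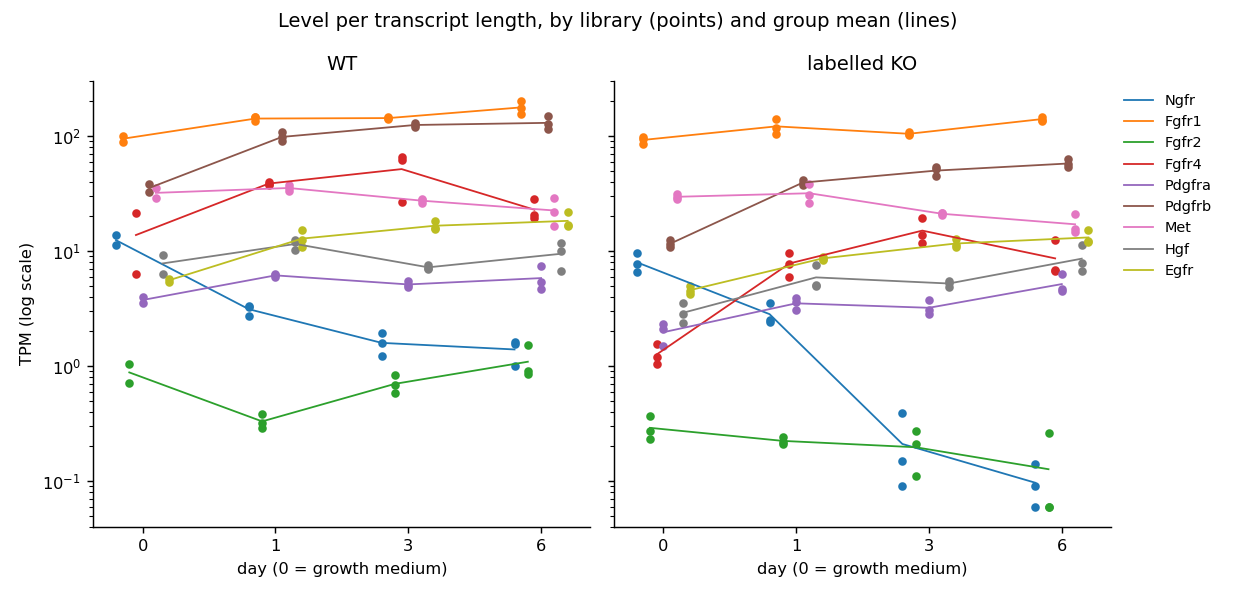
TPM on a log axis by day in WT and in labelled KO for the 9 genes, points for libraries and lines for group means. Fgfr1 is at the top in both panels, and Ngfr goes from the middle of the order to the eighth place in WT and the last in labelled KO, reaching 0.06 to 0.14 TPM on day 6 in labelled KO.

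By likeness of pattern, over the 8 group means of log2 CPM, the genes closest to Ngfr were Gnb4 (Pearson r = 0.98), Nt5c (0.97), Ralgapb (0.97), Gpd2 (0.97) and Ets1 (0.97). The points share libraries and the strong split between growth medium and later days, so these are descriptions of 8 points. For the other genes the highest correlation was with Prdx5 for Fgfr1 (0.99), Aph1b for Fgfr2 (0.96), Vps9d1 for Fgfr4 (0.99), Cpt2 for Pdgfra (0.98), Ephb6 for Pdgfrb (0.99), Fhod1 for Met (0.98), Zc3h12a for Hgf (0.99) and AK008732 for Egfr (0.996). Ephb6 is an ephrin receptor gene whose product lacks kinase activity, and Ets1 encodes a transcription factor of the ETS family. The 9 genes themselves were left out of this search.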

How the data were processed

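Poly(A) RNA-seq libraries were analysed from 23 samples in 8 groups, grouped by genotype and day from the sample titles. The deposited table of the authors holds estimated counts per gene and library. RSEM, Bowtie2 and mm10 are named per the submitters' processing notes, and their roles, versions and the annotation are not given in the sources used here. The authors also deposited TPM values per gene, which were used for levels between genes and for 2 alternatives. Every column was mapped to a sample. The Pdgfrb and Fgfr1 promoters are not printed, and some genes of the neurotrophin list are not reported here by name.

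Estimated counts were rounded to whole numbers, filtered with filterByExpr (minimum count 10, minimum total 15), scaled by TMM and tested with edgeR 4.0.16 (glmQLFit, glmQLFTest) in R 4.3.3, with 1 mean per group over all 23 libraries. The 13 contrasts were each adjusted by Benjamini-Hochberg over 14187 genes, with a threshold of 0.05. Standard errors were derived from the log2 fold change and its F statistic. Poisson intervals are exact at 95%. The steps were also run on simulated data. Far fewer genes differed there than were called here, so the run gives no error rate for these data. Sequences are RefSeq promoters of GRCm38.p6, with an entry for 7 of the 9 genes, and gene positions are from GENCODE M21.

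The 9 genes, the 8 lists of related genes and the markers were chosen with earlier results of these data known. From each list, text names come from the 2 highest and 2 lowest called log2 fold changes per contrast with non-overlapping groups and a group mean of at least 5 CPM. Alternatives were scaling by RLE or by library size only, either no filter or a floor of 50 on the mean count, DESeq2 1.42.0 in place of edgeR, limma 3.58.1 on log2(TPM + 1) and log2(TPM + 0.1), fits of only the groups compared, a replicate block, stricter thresholds and leaving out each library. The pseudocount shrinks changes of low genes, but some Fgfr4 values were farther from 0 on the TPM scales. Replicate numbers come from the labels, and same-numbered libraries showed no strong shared deviation.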

Additional observations from a re-analysis of the deposited data

Results flagged for a closer look

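The change from growth medium differed between genotypes, by a test of the difference itself, for 4 genes. Each value is the log2 change in labelled KO minus that in WT. For Fgfr4 it was 1.38 on day 3 and 0.93 on day 6. For Hgf it was 1.09 on day 3 and 1.34 on day 6. For Pdgfra it was 0.89 and for Pdgfrb 0.48, both on day 6. The growth-medium libraries enter all of these values. On both TPM scales the day 3 values of Fgfr4 and Hgf and the day 6 values of Pdgfra and Pdgfrb were not called, and that of Fgfr4 on day 6 was not called on log2(TPM + 1). The Hgf call on day 3 was lost without replicate 1 of WT in growth medium (0.83), and the Pdgfrb call without any of 4 libraries (0.40 to 0.44).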

How the results depend on the processing

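Precision is limited by 2 libraries of WT in growth medium and by few counts for Ngfr on days 3 and 6 in labelled KO and for Fgfr2. Of 101 single-gene tests of the 9 genes, 78 kept their direction and their side of the threshold whichever library was left out. Values given without a test, of Ngfr and of day 6 against growth medium in labelled KO, are not in this count.

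Values that changed sign were small. The Fgfr1 difference between genotypes in growth medium became -0.02 with library size only and -0.03 on both TPM scales. The Met change by day 1 in labelled KO became 0.03 with library size only, 0.08 on log2(TPM + 1) and 0.09 on log2(TPM + 0.1), and that in WT became -0.00 with no filter. The Fgfr2 interaction on day 3 became 0.03 on log2(TPM + 1).

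The 2 interaction calls on day 3 became 0 on both TPM scales, 4 with only the groups compared, 1 at an adjusted p under 0.01, and 1 to 2 with a library left out. The 4 on day 6 became 1 on log2(TPM + 1), 2 on log2(TPM + 0.1) and 1 at an absolute log2 change of at least 1. That minimum also left 2 genotype calls on day 1 and 3 on day 3, 4 changes in WT by day 6, and 2 and 3 changes in labelled KO by days 1 and 3, by its construction. Otherwise the cause was not tested. Without replicate 2 of labelled KO, the day 1 genotype difference of Hgf, at -1.10, also passed that minimum.

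With a library left out, these changed sign within a range. Between genotypes it was -0.14 to 0.04 for Met on day 0, -0.30 to 0.05 for Ngfr on day 1, and -0.21 to 0.09 for Hgf and -0.17 to 0.11 for Pdgfra on day 6. Against growth medium in WT it was -0.08 to 0.10 for Met by day 1, and -0.15 to 0.25 for Fgfr2 and -0.13 to 0.35 for Hgf by day 6. Against growth medium in labelled KO it was -0.16 to 0.04 for Met by day 1. For the interaction it was -0.17 to 0.03 for Met, -0.07 to 0.33 for Fgfr4 and -0.02 to 0.30 for Pdgfra on day 1, and -0.83 to 0.15 for Fgfr2 on day 3.

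Same-numbered libraries of the genotypes had mean correlations of their deviations of 0.049, 0.003, 0.017 and -0.094 on days 0, 1, 3 and 6. No strong shared deviation was thus seen, but 2 or 3 pairs per day cannot tell whether the numbers mark shared cultures or batches. The replicate block left 12 of 12 counts within 1.5 times, and among the 9 genes it changed 1 call, the Hgf change by day 1 in WT (0.47, adjusted p 0.0419). On log2(TPM + 1) the median of all genes moved by 0.13 and 0.15 in WT by days 3 and 6 and by 0.11 and 0.10 in labelled KO by days 1 and 6. Its genotype difference was -0.04, -0.01, -0.08 and -0.10 on days 0, 1, 3 and 6. Changes and genotype differences on that scale are relative to this median.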
